A study of Bos indicus x Bos taurus with 78 samples.

Results

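The let-7 family was followed in loin muscle of cattle, as the 9 rows of the deposited count table whose name starts with let-7 together with miR-98, a relative known to be made beside let-7f in human. These 10 of the 1030 rows were chosen by name and not by their values: bta-let-7a-5p, bta-let-7a-3p, bta-let-7b, bta-let-7c, bta-let-7d, bta-let-7e, bta-let-7f, bta-let-7g, bta-let-7i and bta-miR-98, written from here on without the species prefix bta. The small RNA libraries came from Longissimus lumborum biopsies, 1 from each of 78 male steers of Bos indicus x Bos taurus breeding. In dark-cutting carcasses the loin stays dark because little glycogen was left to acidify it. The labels call 25 of the steers dark-cutting, with a degree of 1/4 in 8 steers, 1/3 in 9, 1/2 in 3, 2/3 in 4 and 3/4 in 1, and the other 53 normal. The sources used here do not give the age, feeding or handling of the animals. The comparisons asked whether the family differed with the phenotype or with its degree.

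MicroRNAs are short RNAs cut from hairpins by Drosha and Dicer, and they silence messenger RNAs that pair with the seed near their start. The let-7 family is known for rising as cells leave the cell cycle and differentiate, the protein LIN28 blocks its maturation in immature cells, and mature skeletal muscle holds much of it. Its known targets in mouse and human include growth and cell-cycle regulators and parts of the insulin signalling route. The arm named 5p is the working strand for let-7a, and the 3p arm is the partner strand that is mostly degraded.

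Total counts per library ran from 2687185 to 4370459 in dark-cutting steers, with a median of 3187710, and from 1427817 to 4535675 in normal steers, with a median of 3211620. The muscle microRNA miR-1 alone took 83.8% ± 2.07 (SD, n = 25) of all counts in dark-cutting and 84.2% ± 3.04 (SD, n = 53) in normal steers. Fold changes are therefore relative to the other microRNAs of a library. The 6 skeletal muscle microRNAs miR-1, miR-133a, miR-133b, miR-206, miR-208b and miR-499 had counts in every steer and together made up 83.6% to 90.0% of counts in dark-cutting and 76.2% to 90.2% in normal steers, while miR-122, the liver microRNA, had 18 counts in all 78 libraries. Smooth muscle microRNAs miR-143 and miR-145 took 1.43% to 4.73% of counts in dark-cutting and 1.28% to 6.36% in normal steers.

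All 10 members had counts in every steer, the lowest being 95 counts of let-7a-3p. Together they made up 2.07% ± 0.282 (SD, n = 25) of all counts in dark-cutting steers and 1.89% ± 0.313 (SD, n = 53) in normal steers. Of the counts other than miR-1 they were 12.8% ± 1.55 (SD, n = 25) in dark-cutting and 12.2% ± 1.82 (SD, n = 53) in normal steers. The ranges overlapped, 1.67% to 2.75% of all counts in dark-cutting and 1.40% to 2.99% in normal steers, and the difference in share was not tested. In a biopsy, fewer cells of a type and less of a microRNA per cell cannot be told apart.

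The family was dominated by 3 members. let-7f held 39.3% of all family counts, let-7a-5p 21.9% and let-7g 20.3%, and in a single library these 3 took 81.6% ± 1.68 (SD, n = 78). let-7i followed with 8.70%, then miR-98 with 2.74%, let-7c with 2.52%, let-7b with 2.36%, let-7d with 1.17%, let-7e with 0.648% and let-7a-3p with 0.327%. Mature microRNAs are of nearly one length, so counts were not divided by length. The capture of different microRNAs into a library was not calibrated, so the order is one of counts.

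Of the 9 steps of that order, 5 held in all 78 steers: let-7f exceeded let-7a-5p, let-7g exceeded let-7i, let-7i exceeded miR-98, let-7b exceeded let-7d and let-7d exceeded let-7e in every library. Neighbours that were not separated were let-7a-5p and let-7g, where let-7a-5p was higher in 43 of 78 steers with a mean log2 ratio of 0.075 ± 0.27 (SD, n = 78). Likewise miR-98 exceeded let-7c in 66 steers, with a mean log2 ratio of 0.15 ± 0.22 (SD, n = 78), and let-7c exceeded let-7b in 58, with 0.099 ± 0.18 (SD, n = 78). let-7e exceeded let-7a-3p in 76 of 78 steers, with a mean log2 ratio of 0.93 ± 0.55 (SD, n = 78).

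**Figure D1:**
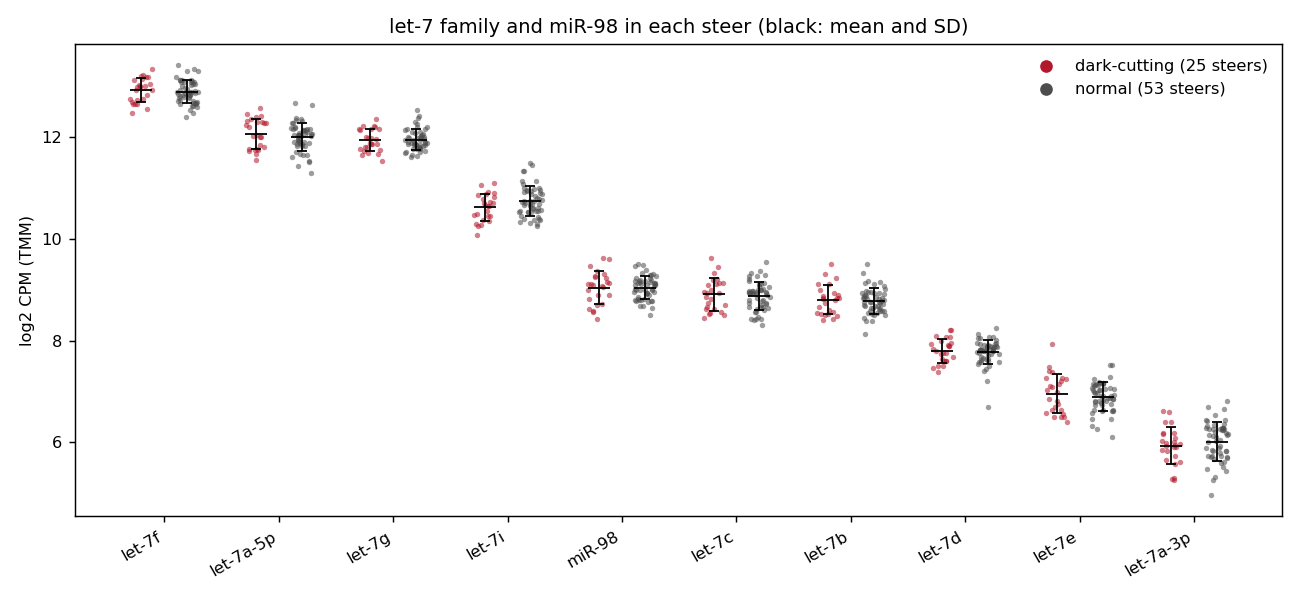
Level of each member in each steer, as log2 CPM (counts relative to library size) with TMM scaling, for dark-cutting (red) and normal (grey) steers, in the order of family counts, with bars for mean and SD. The 2 clouds of every member overlap, from let-7f at means of 12.91 in dark-cutting and 12.88 in normal steers to let-7a-3p at 5.94 in dark-cutting and 6.02 in normal steers.

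The working arm of let-7a far outnumbered its partner arm. Counts of let-7a-5p over those of let-7a-3p averaged 74.1 in dark-cutting steers, with a range of 41.8 to 126, against 66.8 in normal steers, with a range of 32.6 to 147. The ratio was not tested. The partner arm was also the most variable member: its biological coefficient of variation in edgeR was 0.259, against 0.160 for let-7g, the steadiest. The median over the 252 microRNAs tested was 0.265, and only 2.78% of them varied less than let-7g. let-7d at 0.169 and let-7f at 0.172 were also among the steadier microRNAs, and let-7e at 0.219 was the next most variable member.

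One normal steer, replicate 42, stood apart in part of the family; it was singled out after its values were seen. It had the lowest level of let-7a-5p, let-7b, let-7c and let-7d of all 78 steers, with 253 counts of let-7d, 4.53 SD under the mean (log2 CPM 6.69 against a mean of 7.78). Yet its let-7f at 12.86, let-7g at 11.86 and miR-98 at 9.02 log2 CPM lay near the means of 12.89, 11.94 and 9.04, and its let-7i at 11.44 log2 CPM was the highest but 1. Its library of 3116769 counts was of ordinary depth. The phenotype results of let-7i and let-7d are given with and without it.

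No member passed the test between dark-cutting and normal steers. Of the 252 microRNAs that passed the low-count filter, 0% had an adjusted p under 0.05 in edgeR's quasi-likelihood test with Benjamini-Hochberg adjustment, and 0 of the 10 members did. At an unadjusted p under 0.05 there were 0 members, against 9.13% of all tested microRNAs, and DESeq2 and limma-voom also gave 0 members by either rule. Of all 252 tested, DESeq2 had 0 at an adjusted and 23 at an unadjusted p under 0.05, and limma-voom 0 and 28. The members' log2 fold changes, dark-cutting minus normal, ran from -0.13 to 0.090 with a median of 0.031 and 7 above 0, beside a median of -0.0091 and 116 of 252 above 0 for all tested. The widest 95% interval of any member reached 0.27 from 0 on the log2 scale, so larger differences than that lay outside all 10 intervals.

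The lead by p was let-7i, known to be made from a transcript of its own in human. In dark-cutting steers its log2 CPM was 10.08 at the lowest, 10.64 at the median and 11.09 at the highest, against 10.25, 10.70 and 11.47 in normal steers. The groups overlapped: 11 of 25 dark-cutting steers were above the normal median, and 2 lay outside the normal range, both below it. Its log2 fold change was -0.13 ± 0.070 (SE), with a 95% interval of -0.26 to 0.012, an unadjusted p of 0.0735 and an adjusted p of 0.416 in edgeR. In the authors' deposited table it stood at -0.12 with a standard error of 0.069, a p of 0.0784 and an adjusted p of 0.634.

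The same direction was seen in let-7i within the family, where no scaling of libraries enters. It made up 8.17% ± 1.35 (SD, n = 25) of family counts in dark-cutting and 9.05% ± 1.88 (SD, n = 53) in normal steers. Its log2 ratio to let-7f was -2.30 ± 0.25 (SD, n = 25) in dark-cutting and -2.14 ± 0.31 (SD, n = 53) in normal steers. These shares and ratios are descriptions without a test, and the ranges of the ratio, -2.66 to -1.58 in dark-cutting and -2.57 to -1.18 in normal steers, overlapped. Without normal replicate 42 the fold change was -0.11, with an unadjusted p of 0.108.

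Of the abundant members, let-7f had log2 CPM of 12.47 at the lowest, 12.98 at the median and 13.34 at the highest in dark-cutting steers, against 12.38, 12.86 and 13.40 in normal steers, and its fold change was 0.036 ± 0.059 on the log2 scale (SE; adjusted p = 0.861 in edgeR). let-7a-5p had 11.53, 12.03 and 12.57 in dark-cutting steers, against 11.29, 12.03 and 12.67 in normal steers, with 0.076 ± 0.067 (SE; adjusted p = 0.690 in edgeR). let-7g had 11.52, 11.87 and 12.35 in dark-cutting steers, against 11.60, 11.90 and 12.53 in normal steers, with -0.013 ± 0.054 (SE; adjusted p = 0.951 in edgeR). The phenotypes overlapped in all 3, with 15, 12 and 12 of 25 dark-cutting animals higher than the normal median of let-7f, let-7a-5p and let-7g.

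The middle members had fold changes within their errors of 0. miR-98 had log2 CPM of 8.43 at the lowest, 9.09 at the median and 9.62 at the highest in dark-cutting steers, against 8.49, 9.07 and 9.50 in normal steers, and a log2 difference of 0.024 ± 0.064 (SE). let-7c had 8.45, 8.93 and 9.61 in dark-cutting steers, against 8.31, 8.92 and 9.54 in normal steers, with 0.042 ± 0.070 (SE). let-7b had 8.41, 8.81 and 9.49 in dark-cutting steers, against 8.12, 8.76 and 9.51 in normal steers, with 0.034 ± 0.064 (SE). miR-98 was the member with most dark-cutting steers outside the normal range, 3 of 25, at both ends of it.

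Among the scarcer members, let-7d had log2 CPM of 7.37 at the lowest, 7.79 at the median and 8.21 at the highest in dark-cutting steers, against 6.69, 7.81 and 8.25 in normal steers, and a log2 difference of 0.027 ± 0.059 (SE), or 0.012 without normal replicate 42. let-7e had 6.40, 6.99 and 7.92 in dark-cutting steers, against 6.11, 6.91 and 7.53 in normal steers, with 0.090 ± 0.077 (SE). let-7a-3p had 5.26, 5.96 and 6.61 in dark-cutting steers, against 4.97, 6.11 and 6.82 in normal steers, with -0.081 ± 0.093 (SE). Only 7 of 25 dark-cutting steers were above the normal median of let-7a-3p, the lowest such count of the 10 members, yet all 25 lay inside its normal range.

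**Figure D2:**
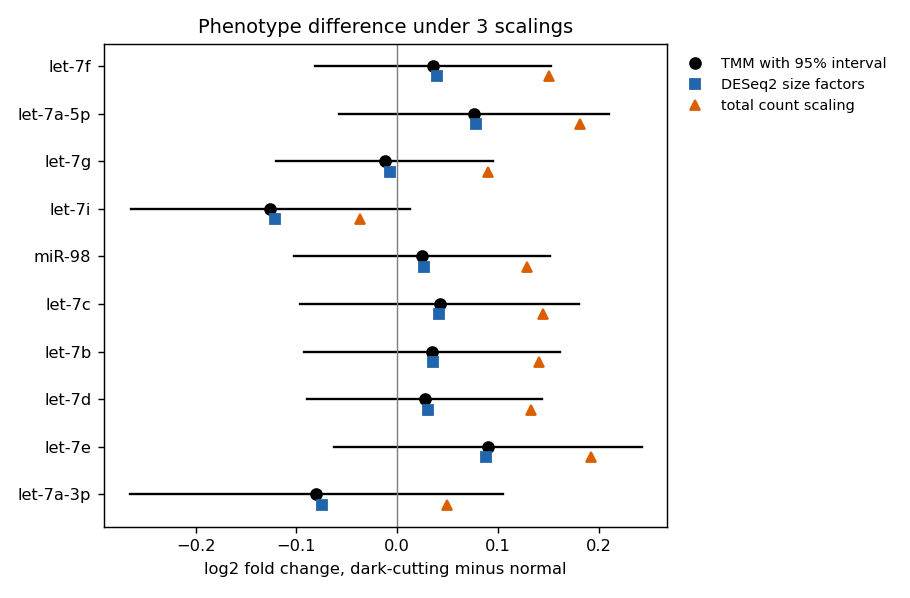
Log2 fold change of each member, dark-cutting minus normal, with TMM scaling and its 95% interval (black), with DESeq2 size factors (blue) and with total counts alone (orange). All 10 black intervals cross 0, and total count scaling moves every member to the right, let-7g and let-7a-3p across 0.

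The direction of let-7g and let-7a-3p depended on the scaling. With total counts in place of TMM the median log2 fold change of all tested microRNAs itself moved by 0.11, and 9 of 10 members lay above 0. let-7f then had a log2 fold change of 0.15 (unadjusted p = 0.00652, adjusted p = 0.241 in edgeR), which is 0.050 above the median of all tested microRNAs, and let-7a-5p had 0.18 (unadjusted p = 0.0267, adjusted p = 0.297 in edgeR), which is 0.081 above it. let-7i stood 0.14 under that median, at -0.037. These 2 members had an unadjusted p under 0.05, against 14.7% of all tested microRNAs with total counts, and 0 had an adjusted p under 0.05 (0% of all tested).

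By degree, too, no member passed the test against normal steers. The degrees and the trend were tested on 272 microRNAs, and in edgeR 0 of 10 members had an adjusted p under 0.05 at degree 1/4 (0% of all tested), 1/3 (0%), 1/2 (0%) or 2/3 (0.368%). At an unadjusted p under 0.05 there were 0 members in each, against 1.1%, 9.19%, 4.78% and 2.57% of all tested microRNAs in that order of degrees, and DESeq2 and limma-voom gave 0 members by either rule. Of all 272 tested, DESeq2 had 6, 25, 13 and 5 at an unadjusted p under 0.05 in that order, and limma-voom 7, 27, 15 and 8. At an adjusted p under 0.05 each of these 2 tools had 1 at degree 2/3 and 0 at the other degrees. Members above 0 numbered 7, 4, 8 and 2 of 10 at degrees 1/4, 1/3, 1/2 and 2/3. Their median log2 fold changes were 0.059, -0.0026, 0.084 and -0.079, beside -0.0096, -0.011, -0.0019 and -0.067 for all tested microRNAs. With total counts in place of TMM, members above 0 numbered 7, 9, 10 and 4 of 10, and the median of all tested microRNAs moved by up to 0.18, at degree 1/2. There 1 member, let-7f, had an unadjusted p under 0.05 with total counts, against 5.15% of all tested microRNAs, with a log2 fold change of 0.27 ± 0.13 (SE; unadjusted p = 0.0410, adjusted p = 0.797 in edgeR, 0% of all tested called). The 4 comparisons share the same normal steers.

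let-7i was below 0 at each of the 4 degrees with TMM scaling, and at 1/2 it lay above 0, at 0.10, with total counts. Its log2 fold changes were -0.12 ± 0.11 (SE) at degree 1/4, -0.13 ± 0.11 at 1/3, -0.055 ± 0.18 at 1/2 and -0.17 ± 0.15 at 2/3, with unadjusted p from 0.212 to 0.755. By steer its log2 CPM was 10.34, 10.65 and 11.05 at degree 1/2, then 10.79, 10.82, 10.24 and 10.48 at 2/3 and 10.46 in the steer of degree 3/4. All but one of these 8 steers lay inside the normal range of 10.25 to 11.47.

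Other members lay on both sides of 0. let-7e, known to be made beside miR-99b and miR-125a in human, had log2 CPM of 7.24, 7.39 and 6.57 at degree 1/2, then 6.50, 7.20, 6.40 and 6.99 at 2/3 and 7.47 at 3/4. Its log2 fold change against normal steers was 0.19 ± 0.19 (SE) at degree 1/2 and -0.12 ± 0.17 at 2/3. let-7c had 9.44, 8.99 and 8.55 at degree 1/2, then 8.51, 9.12, 8.66 and 8.85 at 2/3 and 9.18 at 3/4. Steers of degrees 1/2 and 2/3 were both high and low within the normal range of let-7e and let-7c. The steer of degree 3/4 was the highest of the dark-cutting steers for let-7d, at 8.21 log2 CPM, and with 1 steer that degree was not tested.

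**Figure D3:**
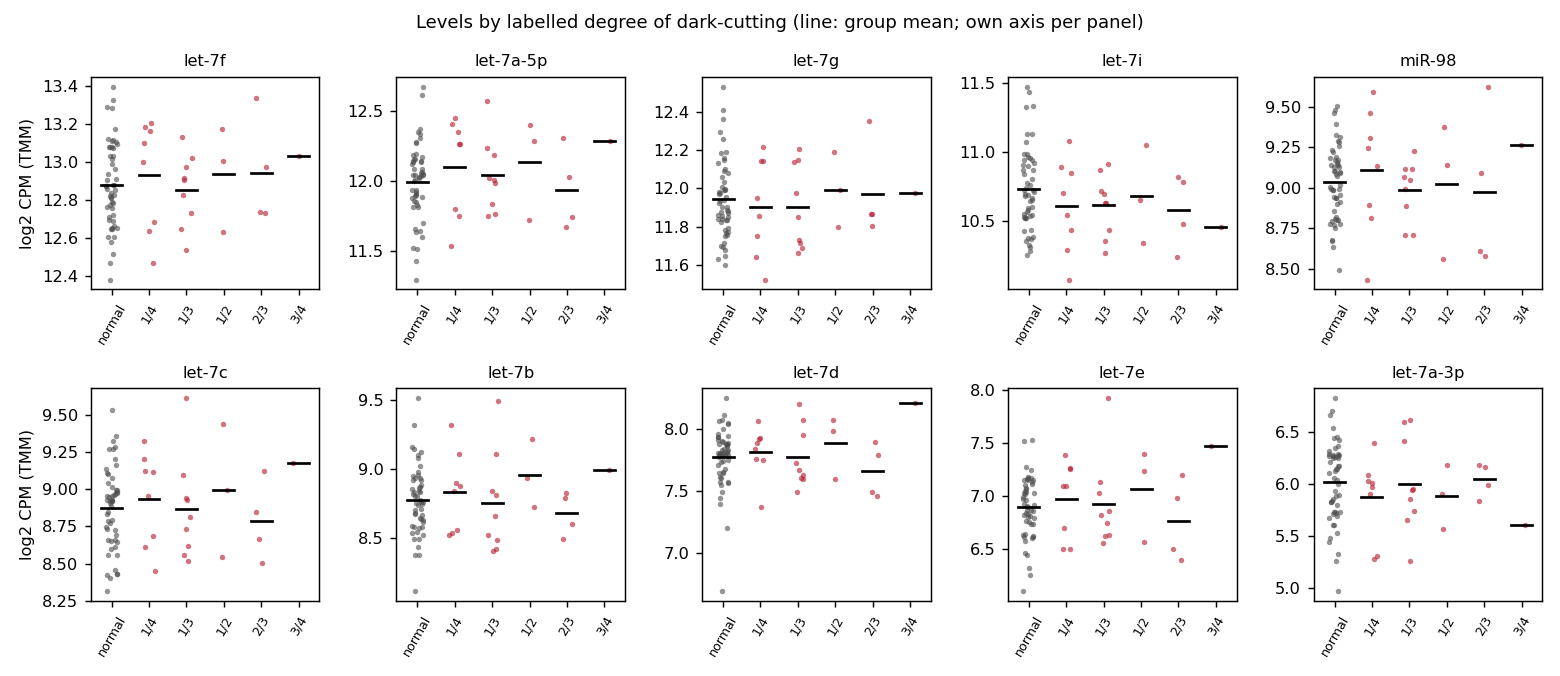
Log2 CPM (TMM) of each member by labelled degree, from normal steers (grey) to degree 3/4 (red), with 1 point per steer, the group mean as a line and a separate axis for each panel. let-7i has its means of 10.61, 10.62, 10.68 and 10.58 at degrees 1/4 to 2/3 below the normal mean of 10.73, within overlapping points.

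The degrees 1/4, 1/3, 1/2 and 2/3 were also set against each other. Over 6 contrasts and 60 values, 0 had an adjusted p and 0 an unadjusted p under 0.05 in edgeR, DESeq2 or limma-voom. In edgeR 0% of all tested microRNAs had an adjusted p under 0.05 in each contrast. For DESeq2 and limma-voom the share of all tested is not given for these contrasts. The share of all tested microRNAs at an unadjusted p under 0.05 in edgeR was 3.31% for degree 1/3 minus 1/4, 1.84% for 1/2 minus 1/4, 2.21% for 1/2 minus 1/3, 2.94% for 2/3 minus 1/4, 2.57% for 2/3 minus 1/3 and 1.1% for 2/3 minus 1/2. The smallest unadjusted p, 0.164, belonged to let-7b at degree 2/3 minus degree 1/2, with a log2 difference of -0.29 ± 0.21 (SE). let-7e had the largest difference of the 60, -0.30 ± 0.24 (SE), in the same contrast.

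The trend over all steers took the labelled fraction as a number and normal as 0. No member passed (0.368% of all 272 tested did in edgeR), and 0 had an unadjusted p under 0.05, against 11% of all tested, with 0 by either rule in DESeq2 and limma-voom. Of all 272 tested, DESeq2 had 3 at an adjusted and 30 at an unadjusted p under 0.05, and limma-voom 0 and 35. let-7i again had the smallest p, with a log2 slope of -0.29 ± 0.16 (SE) per whole unit of degree, an unadjusted p of 0.0699 and an adjusted p of 0.436 in edgeR. let-7e had the largest slope above 0, 0.18 ± 0.18 (SE). With total counts the median slope of all tested microRNAs moved by 0.23, and 3 members had an unadjusted p under 0.05, against 14.7% of all tested. The smallest was that of let-7f, with a slope of 0.37 (unadjusted p = 0.00341, adjusted p = 0.205 in edgeR), and 0 members had an adjusted p under 0.05, against 1.1% of all tested. Within the 25 dark-cutting steers alone, 0 members passed at an adjusted p (0% of the 251 tested) or an unadjusted p under 0.05 (3.59% of all tested) in edgeR, and the smallest unadjusted p was 0.556. Of the slopes within dark-cutting steers 2 of 10 were above 0 with TMM and 10 of 10 with total counts, where the median of all tested microRNAs moved by 0.18.

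The title numbers of the steers fall in a low and a high range, and the labels do not say what these mark. Below 600 there were 8 dark-cutting and 18 normal steers, and at 600 and above 17 dark-cutting and 35 normal steers. The phenotype difference did not pass as different between the ranges for any member: 0 had an adjusted p (0% of the 252 tested) or an unadjusted p under 0.05 (3.97% of all tested) in edgeR, and limma-voom gave 1 at an unadjusted p. For this test the share of all tested was computed in edgeR alone, so that 1 has no background share beside it. The member nearest to passing in edgeR was let-7g, at -0.17 ± 0.095 (SE) below 600 and 0.060 ± 0.065 at 600 and above, a difference of -0.23 ± 0.12 (unadjusted p = 0.0529, adjusted p = 0.852 in edgeR). With total count scaling that difference was 0.0094. let-7i had -0.10 ± 0.12 (SE) below 600 and -0.14 ± 0.084 at 600 and above. Between the ranges themselves, below 600 minus above with phenotype in the fit, let-7i differed by -0.13 ± 0.068 (SE; unadjusted p = 0.0677, adjusted p = 0.465 in edgeR). Its difference between phenotypes was of that size, -0.13 ± 0.070 (SE). The other members ran from -0.059 for let-7e to 0.014 for let-7d between the ranges.

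Many members moved together from steer to steer. Of the 45 pairs of members, 20 had Pearson's r of log2 CPM above 0.5 over the 78 steers, which is 44.4%, against 1.61% of the 36856 pairs among the 272 microRNAs. These shares were not matched for abundance. No member had under 95 counts in a library, while the 272 include scarce microRNAs such as miR-99a-3p, with a median of 10 counts. The gap between the shares is thus not shown to be a trait of the family. Permutation tests over the 45 pairs and 6 pairs with neighbouring microRNAs, 51 relations in all, gave a Benjamini-Hochberg adjusted p under 0.05 in 31 member pairs, all with r above 0. The weakest of the 31 was let-7a-3p with let-7i, at r = 0.260. The permutation test was not run over all 36856 pairs, so the 31 have no background share beside them. The smallest p that the 100000 resamples can give is 1e-05. Near-identical members share much of their sequence, and the sources used here do not say how reads that match several rows were divided, so counts of such members are uncertain. The part of read sharing in these correlations was not tested.

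The tightest pair was let-7a-5p and let-7c, with r = 0.936 and Spearman's rho = 0.940 (permutation p = 1e-05, adjusted p = 2.55e-05 for r). Without the 2 steers farthest from the median r was 0.928, it was 0.952 within dark-cutting and 0.930 within normal steers, and 0.938 and 0.935 in the low and high number ranges. In counts, let-7c over let-7a-5p held a log2 ratio of -3.16 ± 0.097 (SD, n = 25) in dark-cutting and -3.12 ± 0.10 (SD, n = 53) in normal steers. let-7c is known in human to be made beside miR-99a, on another chromosome from any copy of let-7a. How reads that match both rows were divided is not given, and the part of read sharing in this pair and its steady ratio was not tested.

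let-7a-5p, let-7b, let-7c, let-7d and let-7e formed a set in which all 10 pairs had r between 0.602 and 0.936; the set was described after r was seen. let-7f had its closest companions in miR-98, with r = 0.840 and rho = 0.830, and in let-7g, with r = 0.797 and rho = 0.783 (permutation p = 1e-05 and adjusted p = 2.55e-05 for both). Without the 2 farthest steers these were 0.832 for each pair. The set was not apart from let-7f and miR-98. let-7a-5p had r = 0.767 with miR-98 (rho = 0.832) and 0.709 with let-7f. let-7c had 0.685 with miR-98 and 0.635 with let-7f, above the lowest r within the set. Pairs of let-7f with let-7b, at 0.322, and with let-7d, at 0.358, were lower. let-7g and let-7b had r = 0.0446 under TMM (rho = 0.0553, permutation p = 0.700, adjusted p = 0.744) and 0.581 with total count scaling. Pairs of all microRNAs were not computed with total counts. Changes of r with that scaling, here and below, thus have no background beside them and are not shown to be traits of the pairs.

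**Figure D4:**
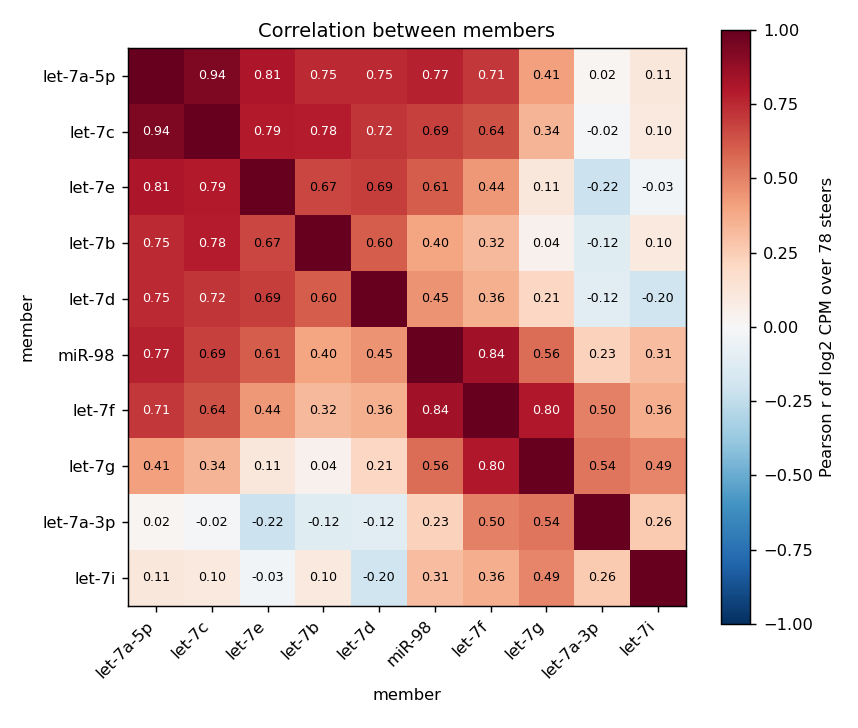
Pearson's r of log2 CPM (TMM) between members over 78 steers, red for r above 0 and blue for r below 0. The block of let-7a-5p, let-7c, let-7e, let-7b and let-7d is red throughout, from 0.60 to 0.94, while let-7i and let-7a-3p stay pale against that block.

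let-7i and let-7a-3p followed the set of let-7a-5p, let-7b, let-7c, let-7d and let-7e less closely than its members followed each other, in values of r that were not compared by a test. The 9 pairs with let-7i had r from -0.199, with let-7d, where it was -0.0566 without normal replicate 42, to 0.492, with let-7g (rho = 0.563, permutation p = 2e-05, adjusted p = 4.86e-05 for r). With total count scaling the let-7d pair turned to 0.266 and the let-7g pair stood at 0.553. The median r of the 9 pairs was 0.113 with TMM and 0.327 with total counts, where 0 of the 9 lay below 0. Within dark-cutting steers the let-7i and let-7g pair had r = 0.673 and within normal steers 0.417, and the difference was not tested. The partner arm let-7a-3p had r = 0.0230 with let-7a-5p, cut from the same hairpins (rho = 0.0185, permutation p = 0.843, adjusted p = 0.860). With let-7g let-7a-3p had r = 0.539 (rho = 0.533, permutation p = 1e-05, adjusted p = 2.55e-05), but with total count scaling that r was 0.190, and with let-7f it was 0.0602 in place of 0.501.

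**Figure D5:**
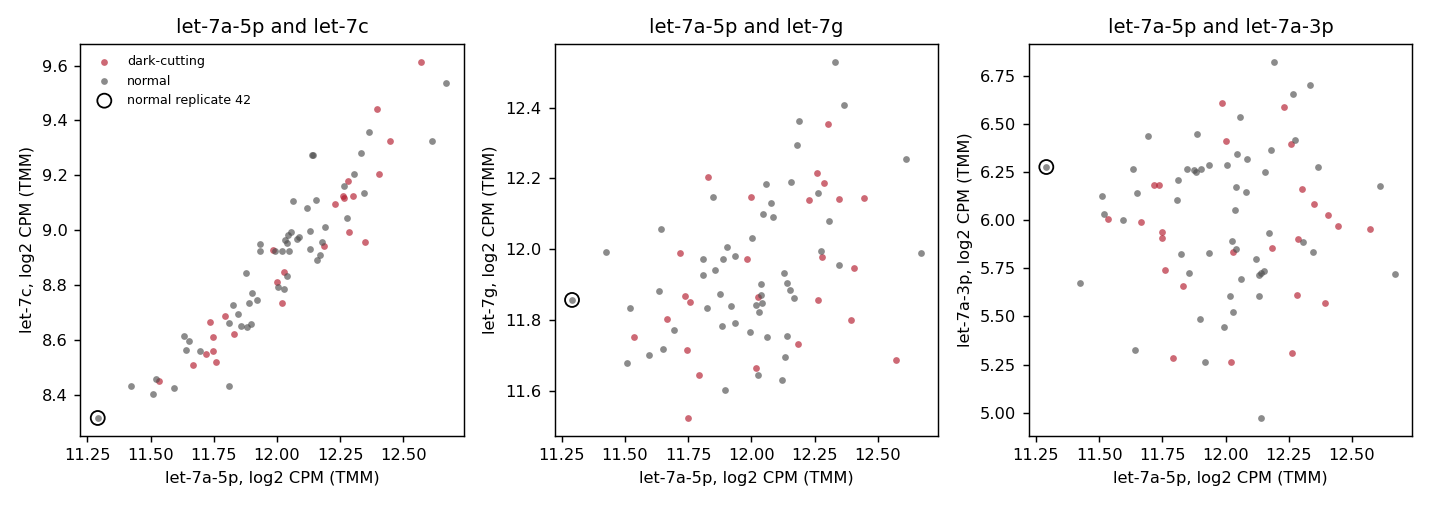
Log2 CPM (TMM) of let-7c, let-7g and let-7a-3p against that of let-7a-5p in the 78 steers, dark-cutting in red and normal in grey, with normal replicate 42 ringed. The points form a narrow band for let-7c (r = 0.936), a loose cloud for let-7g (r = 0.408) and no slope for let-7a-3p (r = 0.0230).

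Some members are known to share a transcript in human. With let-7a taken by its 5p arm alone, the 5 such pairs, let-7a-5p with let-7b, let-7d and let-7f, let-7d with let-7f, and let-7f with miR-98, had r from 0.358 to 0.840 with a median of 0.749. The partner arm let-7a-3p, cut from let-7a hairpins too, had r of 0.0230 with let-7a-5p, -0.122 with let-7b, -0.115 with let-7d and 0.501 with let-7f. let-7d and let-7f, made from one transcript in human, had r = 0.358 (rho = 0.425, permutation p = 0.00123, adjusted p = 0.00224). That value was 0.718 with total count scaling.

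The 6 microRNAs known in human to be made beside some let-7 copies, miR-99a-5p, miR-99a-3p, miR-99b, miR-100, miR-125a and miR-125b, were set beside their let-7 neighbours. let-7e had r = 0.376 with miR-125a (rho = 0.292, permutation p = 0.00079, adjusted p = 0.00155) and r = -0.253 with miR-99b (rho = -0.293, permutation p = 0.0240, adjusted p = 0.0371), and r was 0.293 and -0.312 without the 2 farthest steers. With total count scaling the miR-99b pair turned to 0.404 and the miR-125a pair stood at 0.678. let-7c had r = -0.0901 with miR-99a-5p (permutation p = 0.435, adjusted p = 0.492) and 0.0833 with miR-125b (permutation p = 0.470, adjusted p = 0.521), against 0.446 and 0.572 with total count scaling. let-7a-5p had r = -0.209 with miR-100 (permutation p = 0.0655, adjusted p = 0.0928) and -0.0668 with miR-125b (permutation p = 0.562, adjusted p = 0.609), against 0.242 and 0.490 with total count scaling. Of the 6, 0 had an adjusted p under 0.05 between dark-cutting and normal steers in edgeR, DESeq2 or limma-voom (0% of the 252 tested in edgeR). At an unadjusted p under 0.05 there were also 0 in each tool, against 9.13% of all tested in edgeR. DESeq2 had 23 and limma-voom 28 of all 252 tested at an unadjusted p under 0.05, and both had 0 at an adjusted p. The lowest log2 fold change, -0.16, was that of miR-99a-3p, with a median of 10 counts per library, and the others ran from -0.023 to 0.034.

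Outside the family, miR-196a, a microRNA of the HOX gene clusters, was among the 3 most alike of 262 other microRNAs for 7 of the 10 members. Its rho over 78 steers was 0.758 with let-7a-5p, 0.743 with miR-98, 0.715 with let-7c, 0.690 with let-7e and 0.686 with let-7d, and 0.621 to 0.778 with let-7f, let-7a-5p, let-7c, let-7d, let-7e and miR-98 under total count scaling. miR-196a had 184 to 1047 counts per library. miR-133a, a muscle microRNA, was in the top 3 of let-7a-5p, let-7d and let-7e, with rho of 0.460, 0.580 and 0.608. With total counts these were 0.719, 0.783 and 0.767, against 0.778, 0.763 and 0.759 for miR-196a, so miR-133a stood above miR-196a for let-7d and let-7e. miR-125a led for let-7b, at 0.491.

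The likeness of let-7f, let-7g and miR-98 to miR-1 turned with the scaling. miR-1 led with rho of 0.711 for let-7a-3p, 0.682 for let-7f and 0.678 for let-7g under TMM and was in the top 3 of miR-98 with 0.494. With total counts these were 0.179, -0.426, -0.412 and -0.562. The total that divides each library is mostly miR-1, so this scaling can by itself set other microRNAs against miR-1. The rho of miR-1 with all other microRNAs is not given for total counts. The turn is thus not shown to be a trait of these members. For let-7i the leading microRNAs were miR-21-5p at 0.606, the imprinted-cluster miR-379 at 0.539 and the smooth muscle miR-143 at 0.513, and with total counts they stood at 0.607, 0.503 and 0.499. The smooth muscle list of miR-143 and miR-145, 2 of 2 with counts in every steer, has its share by phenotype given above. miR-145 was not among the 3 microRNAs most alike to let-7i. Between dark-cutting and normal steers miR-143 had a log2 difference of -0.23 ± 0.12 (SE, adjusted p = 0.416 in edgeR). That of miR-145 lay in the other direction, at 0.071 ± 0.097 (SE, adjusted p = 0.818 in edgeR). The part of the list in the let-7i values was not tested.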

How the data were processed

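Small RNA of 78 muscle biopsies was sequenced from NEXTflex libraries, per the labels' protocols. FastQC, Trimmomatic 0.32 and DESeq2 1.34.0 are named in the submitters' processing notes. The sources used here give no aligner, counting rule, microRNA reference or genome build, and no positions or sequences are printed. The deposited matrix holds raw read counts per mature microRNA, per the file headers and values. The authors' deposited table gives mean normalized signal, log2 fold change with its error, Wald score, and p-value with adjusted p-value. A DESeq2 1.42.0 fit of the phenotype on rows with at least 10 counts gave its Wald scores within 7.55e-08.

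Title numbers identify separate steers, and no 2 of the 3003 library pairs agreed within sampling noise (chi-square over its degrees of freedom at least 9.43). The test was edgeR 4.0.16 (R 4.3.3), quasi-likelihood F test, robust, TMM, adjusted p threshold 0.05. The filter was filterByExpr with a minimum count of 10 for the phenotype, and for degrees and trends a level equal to 10 counts in 8 or more libraries, with 15 in all. All degrees shared one fit of 78 libraries. Standard errors follow from the F statistic. Log2 CPM used a prior count of 2, and ratios a pseudocount of 1. Correlations used 100000 permutations. The edgeR tests of the phenotype, of each degree against normal and of the trends were checked on simulated data. The contrasts between degrees, the test between number ranges and the permutation tests were not. limma 3.58.1 and DESeq2 were alternatives.

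Members and lists were chosen with earlier results of these data known. Named microRNAs are the members, the 6 transcript neighbours, and per member the 3 most alike by Spearman's rho, of which some are printed. The part of that rule on shared seeds was not applied here. Of the marker lists, red blood cells held 0.0325% to 0.326% of counts, white blood cells 0.00306% to 0.0184%, endothelium 0.323% to 1.11% and fibroblasts 0.0286% to 0.378% over all steers. The skin epithelium list had 0 counts in the 1 of its 2 rows found.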

Additional observations from a re-analysis of the deposited data

Results flagged for a closer look

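Groups of 4 to 9 steers of one degree were searched for a steer far from the others by the gap to its nearest neighbour over the whole range. Of the 30 groups of member and degree looked at, 3 held such a steer, and chance alone gives such a gap in about 5% of groups.

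let-7d at degree 1/4 was lowest in replicate 5, at a log2 CPM of 7.37, and the nearest of the other steers had 7.76. let-7e at degree 1/3 was highest in replicate 5, at a log2 CPM of 7.92, with the nearest at 7.14, and was the highest let-7e of all 78 steers; the same steer had the highest let-7c, at 9.61. let-7g at degree 2/3 was highest in replicate 2, at a log2 CPM of 12.35, with the nearest at 11.87, and this steer also had the highest miR-98 of all, at 9.62.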

How the results depend on the processing

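No member or transcript neighbour had an adjusted p under 0.05 in any comparison, under any of up to 11 other settings or with any of the 78 steers left out, and the smallest adjusted p was 0.205. No paired analysis was possible because the labels number each steer on its own and pair none across groups.

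Directions turned for dark-cutting minus normal with total counts in let-7a-3p (0.050) and let-7g (0.090), for let-7g without miR-1 (0.0032), with no low-count filter (0.0022) and at title numbers of 600 and above (0.068), for let-7a-3p there too (0.0091), and below 600 for let-7f (-0.085) and miR-98 (-0.084). For the trend over all steers they turned with total counts in let-7a-3p (0.12), in limma-voom for miR-98 (-0.0026), below 600 for let-7e (-0.034), let-7f (-0.17), let-7g (-0.31) and miR-98 (-0.29), and at 600 and above for let-7b (-0.033). let-7i turned with total counts at degree 1/2 (0.10) and within dark-cutting steers (0.076), and within dark-cutting steers below 600 (0.32). The let-7g difference between number ranges was 0.0094 with total counts. The cause was not tested.

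Leaving out 1 steer gave log2 fold changes from -0.0025 to 0.058 for let-7b, -0.035 to 0.0092 for let-7g and -0.0068 to 0.046 for miR-98 between phenotypes. For the trend over all steers they ran from -0.0082 to 0.12 for let-7b, -0.0036 to 0.16 for let-7c, -0.026 to 0.14 for let-7d, -0.078 to 0.062 for let-7g and -0.084 to 0.14 for miR-98. let-7i ran from -0.26 to 0.099 at degree 1/2, -0.25 to 0.0078 at 2/3 and -0.25 to 0.048 within dark-cutting steers. Between phenotypes let-7i kept its sign, from -0.15 to -0.0996, with an unadjusted p under 0.05 in 5 of the 78 omissions and adjusted p from 0.337 to 0.969 over all its settings. The let-7g difference between number ranges had an unadjusted p under 0.05 in 18 of the 78 omissions, with adjusted p of at least 0.684. The share of all tested microRNAs at an unadjusted p was not computed for the omissions, so the 5 and the 18 have no background share beside them.

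The family was 1.95% of all counts over the 78 steers and 12.4% of counts other than miR-1. The order of members by mean log2 CPM was that by counts in all 10 places. Pairs of members with r above 0.5 numbered 18 to 28 of 45 over the other scalings and subsets of steers, and 22 without normal replicate 42. That omission and the number ranges were chosen after seeing the data. The share of all microRNA pairs above 0.5 was computed only with TMM over all steers, so these counts have no such share beside them. The median r of pairs with let-7a-3p was -0.044 with total counts and -0.038 at 600 and above. A pseudocount of 0.5 moved no mean ratio beyond its SD. Fits of single degrees within number ranges were not run, since the ranges hold too few steers of some degrees. Counts of let-7a-3p, down to 95, give a counting SD of 0.0996 on the log2 scale at its median.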
